A study of Mus musculus with 26 samples.

Results

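Peaks around the genes of 9 sensory ion channels were collected from maps of open chromatin, H3K27Ac and 3 transcription factors (TFs) in early mouse TrkC neurons. The mechanosensory set held *Piezo2*, *Piezo1*, *Asic1*, *Asic2* and *Asic3*, and the heat and cold set held *Trpv1*, *Trpv2*, *Trpa1* and *Trpm8*. The genes were listed by name and function, with earlier results of these data known, and they make up 9 of the 21938 protein-coding genes of GENCODE M21. A peak belonged to a gene when its midpoint lay in the gene body or within 50 kb of it, and for *Piezo2* also up to 250 kb upstream. This gave 303 of the 159182 peaks in the lists, 240 of them in 2270 kb around the mechanosensory genes and 63 in 611 kb around the heat and cold genes.

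The cells came from dorsal root ganglia (DRG) of mouse embryos at E11.5 that carried BacE-GFP, a bacterial artificial chromosome with EGFP in the *Runx3* locus, so that GFP marked Runx3-expressing TrkC neurons. Ganglia of several embryos were pooled in each sample, and the cells were sorted by GFP. Per the methods of the study, 2 experiments used magnetic separation with an antibody to TrkC instead, on embryos with GFP or on wild-type (WT) embryos, and which samples these are is not given in the sources used here. The 26 samples shared this age and tissue and differed by assay, with 3 for ATAC, 5 for H3K27Ac, 8 for Runx3, 2 for Brn3a, 3 for Isl1 and 5 with normal rabbit serum (NRS) as the control for peak calling. ATAC used 50000 cells, and each CUT&RUN sample used 300000 to 600000 cells per the labels. The methods of the study give a smaller number of sorted cells per CUT&RUN sample. The deposited lists are consensus peaks over the samples of an assay, with positions and no signal, so depth is unknown, no value exists per sample, and no difference could be tested against a spread between samples. Intervals given here are exact 95% intervals that cover counting error alone, and neither peaks nor genes are replicates.

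Mechanical and thermal stimuli are turned into current by different channel families. Piezo channels are large proteins that open when the membrane is stretched, and Piezo2 is the main channel of touch and of proprioception, the sense of limb position carried by TrkC neurons. Acid-sensing ion channels (ASICs) are proton-gated sodium channels related to the touch channels of worms. Trpv1 responds to heat and capsaicin, Trpm8 to cold and menthol, and Trpa1 to irritant chemicals, and all 3 are known from nociceptive or thermosensitive neurons of the DRG, while Trpv2 is a related channel found in larger neurons too. Runx3, Brn3a (*Pou4f1*) and Isl1 are TFs of sensory neurons. ATAC marks accessible chromatin, and H3K27Ac marks active promoters and enhancers.

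The label of the cells was checked at marker genes. All 5 TrkC neuron markers (*Ntrk3*, *Runx3*, *Pou4f1*, *Isl1* and *Etv1*) had an ATAC peak within 1 kb of a transcription start site (TSS), and 4 had H3K27Ac. Such an ATAC peak was present at 64.8% of all coding genes and such an H3K27Ac peak at 58.3%. Of 4 genes of glia and neural crest, 2 had an ATAC peak there and 1 had H3K27Ac, and none of 3 myeloid genes had either. *Runx3* is no independent check of the label, since the sort used GFP from a transgene of the *Runx3* locus, which also adds copies of that locus. These lists do not tell TrkC neurons from other sensory neurons. Whether other cells contributed to peaks of the heat and cold genes was not tested.

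Marks at the promoters of the channel genes came first. An ATAC peak lay within 1 kb of a TSS of 8 of the 9 genes, beside 64.8% of all coding genes, and an H3K27Ac peak at 7 of 9, beside 58.3%. *Trpv1* had neither mark and *Trpa1* had ATAC alone. When the start of the main transcript was asked for (the longest transcript annotated as principal, a count added after the values were seen), ATAC was present at 4 of 5 mechanosensory genes and 2 of 4 heat and cold genes, beside 60.8% of all genes. H3K27Ac was present there at *Piezo2*, *Piezo1*, *Asic1* and *Asic2*, which is 4 of 5, and at 0 of the 4 heat and cold genes, beside 54.7% of all genes. At *Trpv2* the limit of 1 kb decided this, since the midpoint of its nearest H3K27Ac peak lay 1.02 kb from the main start and that of the ATAC peak 0.95 kb. These are counts over few genes and no test was run on them.

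Every one of the 5 mechanosensory genes had at least 1 peak in each of the 5 lists. Of all coding genes, 87.7% had an ATAC peak in their body or within 50 kb, 80.0% an H3K27Ac peak, 63.2% a Runx3 peak, 67.8% a Brn3a peak and 45.4% an Isl1 peak. Among the heat and cold genes, all 4 had ATAC and Isl1 peaks, and 3 had H3K27Ac, Runx3 and Brn3a peaks, with *Trpa1* the gene that lacked them. Peaks with the motif of their TF were counted in the same way. A Runx3 peak that held a Runx binding site (RBS; RCCRCA on either strand, with R for A or G) is called Runx3_RBS here, and the lists mark Brn3a peaks with the matrix V$BRNF (Brn3a_BRNF) and Isl1 peaks with V$LHXF (Isl1_LHXF). Runx3_RBS peaks were found at 5 of 5 and 3 of 4 genes (52.3% of all genes), Brn3a_BRNF at 5 of 5 and 2 of 4 (48.2%) and Isl1_LHXF at 5 of 5 and 4 of 4 (33.7%).

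**Figure D1:**
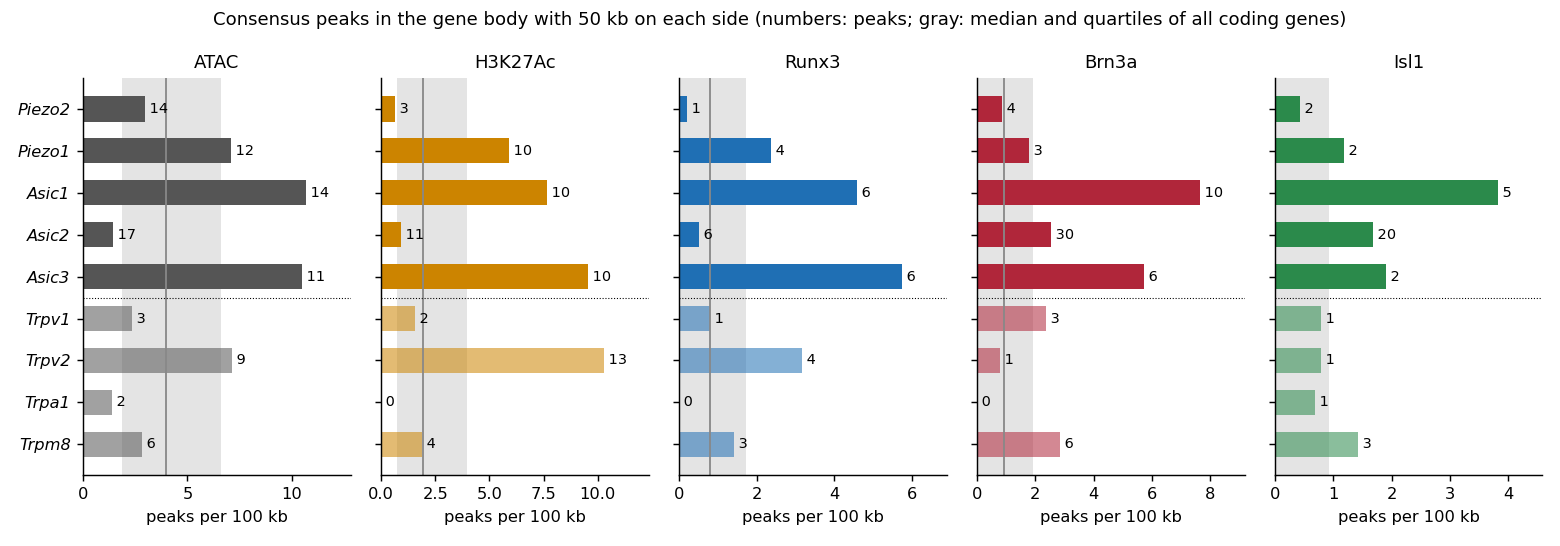
Peaks per 100 kb (x axis) of each channel gene in the gene body with 50 kb on each side, 1 panel per list, with the number of peaks beside each bar and, in gray, the median and quartiles of all protein-coding genes. *Asic1*, *Asic3*, *Piezo1* and *Trpv2* stood above the upper quartile for ATAC, H3K27Ac and Runx3, whereas *Trpa1* had 0 peaks of H3K27Ac, Runx3 and Brn3a.

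Peak density ranged widely within each set. In windows of 50 kb on each side, *Asic3* (5.74 Runx3 peaks per 100 kb, above 98.9% of genes) and *Asic1* (4.59, above 97.3%) were dense in Runx3, whereas *Asic2* (0.505) and *Piezo2* (0.21) lay below the median of 0.798 over all genes. *Asic1* was also near the top of all genes for Brn3a, with 7.65 peaks per 100 kb (above 99.6%), and for Isl1, with 3.82 (above 99%). In the heat and cold set, *Trpv2* had 10.3 H3K27Ac peaks per 100 kb (above 98% of genes) and *Trpa1* had 0. *Trpm8* had 2.84 Brn3a peaks per 100 kb and *Trpv1* had 2.36, both above the upper quartile of 1.92.

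Taken over whole sets, the mechanosensory windows held 1.61 times as many Brn3a peaks per 100 kb as the heat and cold windows (2.64 against 1.64, interval of the ratio 0.82 to 3.54) and 1.66 times as many Isl1 peaks (1.63 against 0.982, 0.694 to 4.81). The ratio was 0.942 for ATAC (0.566 to 1.63), 0.908 for Runx3 (0.401 to 2.31) and 0.651 for H3K27Ac (0.374 to 1.18). All 5 intervals include a ratio of 1, so no difference in density between the sets was detectable from these counts. The H3K27Ac ratio rested on *Trpv2*, which supplied 13 of the 19 peaks of its set, and it was 1.64 (0.697 to 4.69) without that gene. *Asic2* holds 1188 of the 2270 kb of the mechanosensory windows, and without it the ratios turned to 1.5 for ATAC (0.88 to 2.64), 1.48 for Runx3 (0.631 to 3.87) and 1.04 for H3K27Ac (0.579 to 1.92).

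Many of these peaks belong to neighbors. The windows of *Asic3* and *Piezo1* held the TSS of 8 other coding genes each, and that of *Asic1* 6, whereas *Piezo2* had 1 (*Napg*) and *Trpa1* had 0. A TSS of the channel gene itself was the nearest coding TSS for 4 of 35 peaks at *Asic3*, 9 of 31 at *Piezo1* and 16 of 45 at *Asic1*. The share was larger at *Asic2*, with 39 of 84, at *Piezo2*, with 27 of 45, and at *Trpa1*, with 3 of 3. Within the gene bodies alone, Runx3_RBS peaks lay in 4 of 5 mechanosensory genes (all but *Asic3*) and in 2 of 4 heat and cold genes (*Trpv2* and *Trpm8*), beside 16.1% of all genes. Brn3a_BRNF peaks lay in the bodies of 3 of 5 and 2 of 4 (17.7% of all genes) and Isl1_LHXF peaks in 4 of 5 and 1 of 4 (12.3%). Longer genes have more room for a peak, and *Asic2* spans 1088 kb. The Runx3_RBS peaks in the body of *Asic2* all lay outside its main transcript, upstream of the main start at 815.1 kb.

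*Piezo2* (ENSMUSG00000041482.17, minus strand, chromosome 18, 63010213 to 63387183 in mm10) had 16 ATAC, 5 H3K27Ac, 5 Runx3, 11 Brn3a and 8 Isl1 peaks in its window of 677 kb. Positions are given here in kb from the start of the gene, negative where upstream. The start carried 2 ATAC peaks and an H3K27Ac peak and no peak of Runx3, Brn3a or Isl1 within 1 kb. Merging the overlapping TF peaks gave 12 sites, of which 5 were shared by Runx3, Brn3a and Isl1. In 3 of these every TF peak had its own motif. They lay at -199.9 kb, at -189.9 kb and at 124.7 kb in intron 2.

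The 5 shared *Piezo2* sites differed in their chromatin. The intronic site (Runx3_RBS at 63262287 to 63262737, with 2 RBS) overlapped an ATAC peak and no H3K27Ac peak of the list. The study describes the Runx3_RBS peak of intron 2 as marked by H3K27Ac as well as ATAC, which differs from the overlap found here. The upstream sites at -199.9 and -189.9 kb overlapped neither mark. Conversely, the sites at -218.2 kb (63605166 to 63605584) and at -109.3 kb (63496375 to 63496642) overlapped both ATAC and H3K27Ac, and in both of them the Runx3 peak had no RBS. For the members as a whole, all 10 Runx3 peaks without RBS overlapped ATAC (interval 69.2% to 100%), as did 16 of 25 with RBS (64%, 42.5% to 82%), beside 91.9% and 72.3% in the whole Runx3 list.

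Sites of Brn3a and Isl1 without Runx3 completed the *Piezo2* locus. A Brn3a_BRNF peak and an Isl1_LHXF peak overlapped at -163.2 kb in unmarked chromatin and at -108.9 kb in chromatin with both marks. Brn3a_BRNF peaks alone lay at -106.8, 73.9 and 142.5 kb, an Isl1_LHXF peak at 108.0 kb and a Brn3a peak without the motif at 110.1 kb, and none of them overlapped ATAC or H3K27Ac. In all, 10 of the 11 Brn3a peaks had BRNF and 7 of the 8 Isl1 peaks had LHXF. All 7 TF sites upstream lay over 100 kb from the gene, and the 4 farthest had *Txnl1* and not *Piezo2* as the nearest coding TSS. With 50 kb upstream in place of 250 kb, *Piezo2* kept 1 Runx3, 4 Brn3a and 2 Isl1 peaks.

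**Figure D2:**
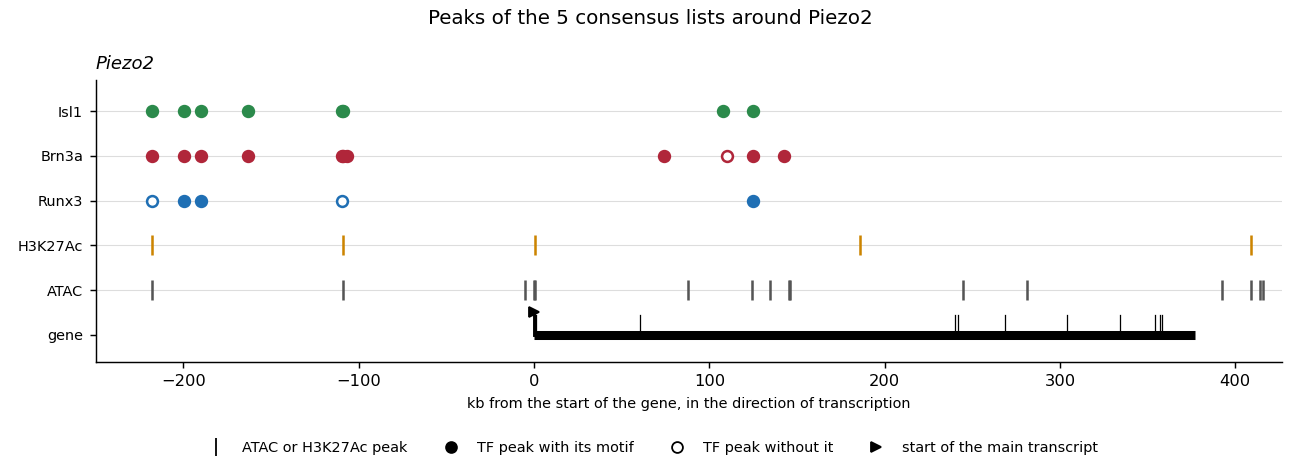
Map of the *Piezo2* window, with the x axis in kb from the start of the gene in the direction of transcription and 1 row per list. Ticks are ATAC and H3K27Ac peaks, circles are TF peaks (filled with the motif of the TF, open without), the black bar is the gene and the arrowhead is the start of the main transcript. TF peaks stack at -218.2, -199.9, -189.9, -109.3 and 124.7 kb, and of these the first, the fourth and the last also have an ATAC peak.

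The coding genes whose counts of the 8 kinds of peak were most like those of *Piezo2* were *Acacb*, *Pim2* and *Slc35a2* (distance 0.736 on log2(count + 1) over gene body and 50 kb each side), *Uba1* (0.769) and *Fgd5* (0.786). *Pim2* and *Slc35a2* are neighbors with identical counts. No other member was among these 5.

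*Piezo1* encodes the Piezo channel of blood vessels, red cells and many other non-neuronal tissues. It lies on chromosome 8 (ENSMUSG00000014444.17, 122481698 to 122551329, minus strand) and had 12 ATAC, 10 H3K27Ac, 4 Runx3, 3 Brn3a and 2 Isl1 peaks. Its start carried 3 ATAC peaks and an H3K27Ac peak and no TF peak within 1 kb. All 4 Runx3 peaks held an RBS. A peak in intron 10, at 50.2 kb, overlapped ATAC, and it was the single Runx3 peak of this gene that had a *Piezo1* TSS as the nearest. The peaks at -16.5 kb and at 107.8 kb lay in the promoters of *Cdt1* and *Mvd* with both marks and a Brn3a peak without BRNF. The peak at -13.8 kb, with 3 RBS, overlapped an Isl1_LHXF peak in chromatin with neither mark. Sequences of an unmarked and an accessible Runx3_RBS region of *Piezo1* follow (plus strand, GRCm38, which is mm10), with RBS and, in the Isl1 peak, the Isl1-type sequence CTAATNG in capitals on either strand.
Piezo1 Isl1_LHXF peak at -13.7 kb, chr8:122564950-122565147: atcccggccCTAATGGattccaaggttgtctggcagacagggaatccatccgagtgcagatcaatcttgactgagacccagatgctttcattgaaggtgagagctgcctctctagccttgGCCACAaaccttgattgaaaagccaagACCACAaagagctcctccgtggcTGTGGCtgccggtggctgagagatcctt
Piezo1 Runx3_RBS peak at 50.2 kb, chr8:122501011-122501160: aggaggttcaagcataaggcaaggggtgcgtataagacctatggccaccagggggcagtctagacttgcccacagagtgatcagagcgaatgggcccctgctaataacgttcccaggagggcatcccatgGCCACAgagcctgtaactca

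The Isl1 peak of *Piezo1* holds 3 RBS and a CTAATNG, whereas the intronic Runx3 peak holds 1 RBS. An RBS is common: 36.9% of all Isl1 peaks and 36.7% of all Brn3a peaks hold at least 1, and CTAATNG is in 23.7% of all Isl1 peaks. A match is a description of the letters and not a measured binding site.

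*Asic1* encodes an acid-sensing channel of central and sensory neurons. It lies on chromosome 15 (ENSMUSG00000023017.10, 99670368 to 99701130, plus strand) and had 14 ATAC, 10 H3K27Ac, 6 Runx3, 10 Brn3a and 5 Isl1 peaks in 131 kb. The 13 merged TF sites included 3 that were shared by the 3 TFs. The site at -9.7 kb had all 3 motifs (Runx3_RBS at 99660357 to 99660820, with 2 RBS) and overlapped ATAC without H3K27Ac. Another, at 8.4 kb in intron 3, had Brn3a_BRNF and Isl1_LHXF with a Runx3 peak without RBS, and it too overlapped ATAC alone. The last, at 55.3 kb, lay in the promoter of *Cox14* with both marks. A Runx3_RBS peak with 2 RBS lay at 21.1 kb, in intron 3 of the main transcript and within 1 kb of the start of a shorter transcript at 21.9 kb. It overlapped neither mark, although an H3K27Ac peak and a Brn3a_BRNF peak lay next to it at 21.7 and 21.8 kb. A Brn3a_BRNF peak with ATAC and H3K27Ac was found at -5.5 kb, and an Isl1_LHXF peak with both marks at -21.7 kb. In promoters of neighbors, Runx3 peaks without RBS lay at -18.7 kb (*Racgap1*, with Brn3a without BRNF) and at 31.8 kb (*Smarcd1*), both with ATAC and H3K27Ac. Sequences from the 3-TF site at -9.7 kb and of the unmarked intronic Runx3 peak are given, with RBS and CTAATNG in capitals. The ATAC peak of the 3-TF site spans 99660717 to 99660863, and every RBS printed from that site lies outside it. The RBS in its Brn3a_BRNF peak lies outside the Runx3 peak too.
Asic1 pair of RBS in the site at -9.7 kb, chr15:99660472-99660515: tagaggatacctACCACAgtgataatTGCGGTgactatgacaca
Asic1 Brn3a_BRNF peak of the same site, chr15:99660729-99660919: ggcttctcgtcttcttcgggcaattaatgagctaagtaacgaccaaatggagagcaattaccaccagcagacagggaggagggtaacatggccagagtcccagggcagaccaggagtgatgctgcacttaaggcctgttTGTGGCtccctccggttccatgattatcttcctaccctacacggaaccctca
Asic1 Runx3_RBS peak at 21.1 kb, chr15:99691315-99691580: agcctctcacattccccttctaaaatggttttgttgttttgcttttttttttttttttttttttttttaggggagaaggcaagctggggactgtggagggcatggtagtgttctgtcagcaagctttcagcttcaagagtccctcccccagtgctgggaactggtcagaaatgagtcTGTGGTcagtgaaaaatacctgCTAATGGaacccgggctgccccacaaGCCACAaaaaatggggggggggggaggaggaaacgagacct

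*Asic2* encodes an ASIC subunit that joins other subunits in mixed channels. It is the longest member (ENSMUSG00000020704.13, chromosome 11, 80880169 to 81968457, minus strand) and had 17 ATAC, 11 H3K27Ac, 6 Runx3, 30 Brn3a and 20 Isl1 peaks in 1188 kb. Its annotation holds an upstream start (Asic2-202) and the start of the main transcript Asic2-201, which lies 815.1 kb farther on. The upstream start had no peak of any list within 1 kb, while the start of Asic2-201 had 3 ATAC peaks and an H3K27Ac peak. Brn3a and Isl1 peaks ran along the whole gene, and 29 of 30 and 19 of 20 lay in its body. The TF sites from 41.9 to 763.4 kb lay outside the main transcript, upstream of its start. For those from 58.9 to 436.4 kb the nearest coding TSS was that of *5530401A14Rik*, a gene inside the window. Of the 38 merged TF sites, 31 overlapped neither ATAC nor H3K27Ac, and 11 joined Brn3a to Isl1 without Runx3. These 11 lay at 41.9, 188.7, 291.4, 299.7, 320.8, 436.4, 499.9, 541.3, 857.0, 1003.3 and 1063.6 kb, of which the site at 320.8 kb overlapped H3K27Ac, that at 436.4 kb overlapped ATAC and the others neither. Runx3_RBS peaks outside 3-TF sites lay at 58.9 kb (2 RBS, with a Brn3a peak and ATAC) and at 763.4 kb (1 RBS, unmarked), and a Runx3 peak without RBS at 1061.8 kb overlapped ATAC. The Runx3, Brn3a and Isl1 peaks met at 3 sites, at 190.2, 355.0 and 598.4 kb, and the one at 355.0 kb had all 3 motifs and both marks. Its Brn3a peak is printed because it holds the Brn3a-type sequence ATNATTAAT and an RBS (both in capitals). That sequence is in 10.4% of all Brn3a peaks and in 14.4% of those with BRNF.
Asic2 Brn3a_BRNF peak at 355.1 kb, chr11:81613238-81613491: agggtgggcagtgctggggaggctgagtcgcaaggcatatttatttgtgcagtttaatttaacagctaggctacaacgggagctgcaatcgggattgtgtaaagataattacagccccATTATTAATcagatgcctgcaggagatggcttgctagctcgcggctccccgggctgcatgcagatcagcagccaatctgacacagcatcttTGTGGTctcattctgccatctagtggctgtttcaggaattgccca

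*Asic3*, the ASIC best known from sensory neurons, is short (ENSMUSG00000038276.12, chromosome 5, 24413392 to 24417835, plus strand) and sits among dense neighbors. Its window of 104 kb held 11 ATAC, 10 H3K27Ac, 6 Runx3, 6 Brn3a and 2 Isl1 peaks. None of the 6 Runx3 peaks lay in the gene, and all 6 were in promoters. They lay at -29.8 kb (*Gm15587*), at -19.8, -19.1 and -18.6 kb (*Abcb8*), at 10.3 kb (*Cdk5*) and at 39.8 kb (*Agap3*), and the peak at -19.1 kb was the one without RBS. The gene itself held an Isl1_LHXF peak at 1.1 kb in intron 1 that overlapped neither mark, and at 2.9 to 3.0 kb an ATAC peak, an H3K27Ac peak and a Brn3a peak without BRNF. The latter lie next to the starts of shorter transcripts at 2.3 and 3.2 kb, and the main transcript Asic3-202 had neither ATAC nor H3K27Ac within 1 kb.

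**Figure D3:**
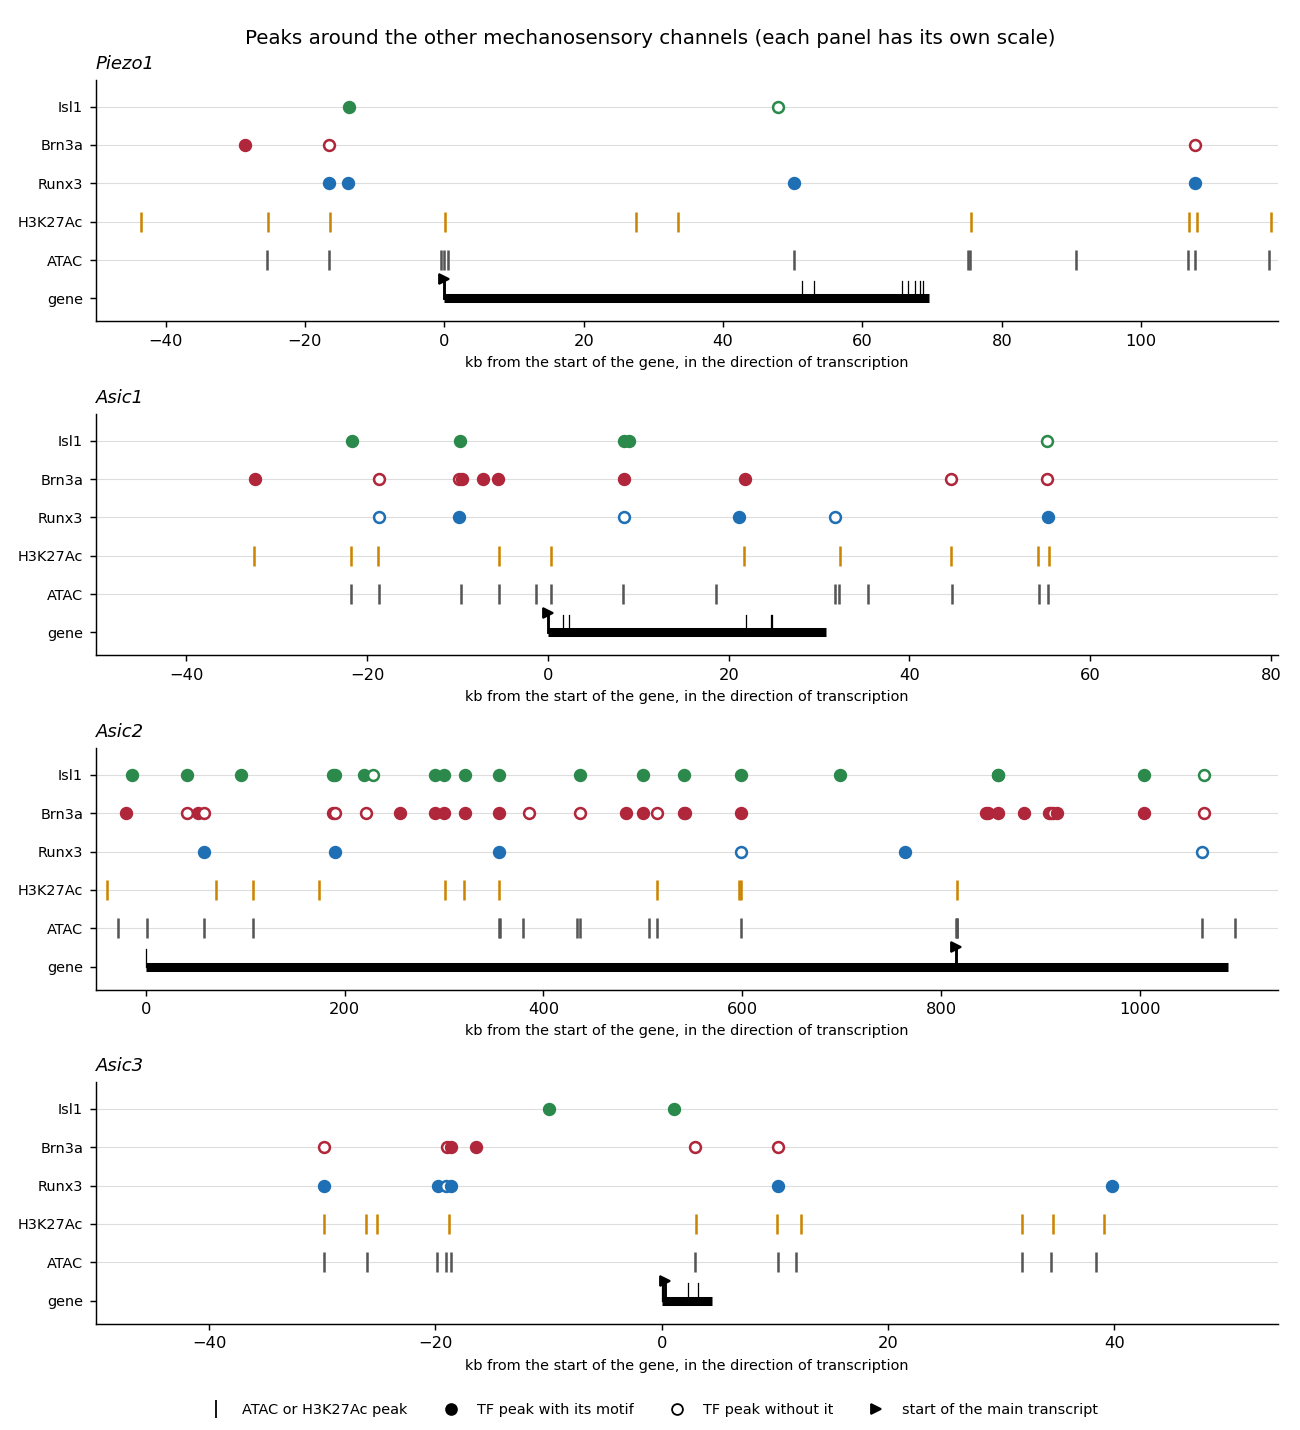
Maps of *Piezo1*, *Asic1*, *Asic2* and *Asic3*, with the x axis in kb from the start of the gene, ticks for ATAC and H3K27Ac peaks and circles for TF peaks (filled with the motif, open without). Thin lines on the black gene bar are other annotated starts. *Asic2* carries 29 Brn3a and 19 Isl1 peaks in its body, and the Runx3 peaks of *Asic3* all lie outside the gene.

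*Trpv1*, the capsaicin and heat receptor, lies on chromosome 11 (ENSMUSG00000005952.15, 73234292 to 73261242, plus strand). Its window of 127 kb held 3 ATAC, 2 H3K27Ac, 1 Runx3, 3 Brn3a and 1 Isl1 peaks, and none of its 5 annotated starts had an ATAC or H3K27Ac peak within 1 kb. The Runx3_RBS peak, with both marks, lay at -34.8 kb in the promoter of *Shpk*. Near the gene there were a Brn3a_BRNF peak overlapping an Isl1_LHXF peak at -5.4 kb and a Brn3a_BRNF peak at 8.8 kb in intron 7, and none of these overlapped ATAC or H3K27Ac. The Isl1 peak is shown because it is 1 of the 2 TF peaks nearest to the start of *Trpv1*. It holds CTAATNG on each strand and an RBS (capitals), although no Runx3 peak overlapped it.
Trpv1 Isl1_LHXF peak at -5.4 kb, chr11:73228810-73229011: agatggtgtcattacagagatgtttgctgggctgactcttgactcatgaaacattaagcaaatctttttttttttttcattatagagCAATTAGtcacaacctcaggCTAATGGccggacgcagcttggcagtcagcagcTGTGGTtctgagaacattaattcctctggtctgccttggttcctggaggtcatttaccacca

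*Trpv2* (ENSMUSG00000018507.16, chromosome 11, 62574486 to 62600515, plus strand) differed from the rest of its set by its 13 H3K27Ac peaks, with 9 ATAC, 4 Runx3, 1 Brn3a and 1 Isl1 peaks in 126 kb. Of these, 2 H3K27Ac peaks and 1 ATAC peak lay within 1 kb of annotated starts of *Trpv2*. Only 2 of the 13 H3K27Ac peaks lay in the gene body, and 6 of the 13 had a *Trpv2* TSS as the nearest coding TSS. A Runx3_RBS peak with 1 RBS was in intron 2 at 2.4 kb and overlapped neither mark. Runx3 peaks at 39.4 kb (without RBS, with Isl1_LHXF) and at 54.9 kb (2 RBS) overlapped both ATAC and H3K27Ac downstream of the gene, and the one at -23.3 kb lay in the promoter of *Ubb*. No Brn3a_BRNF peak was listed in the window. The RBS of the intronic and of the downstream peak are compared here.
Trpv2 RBS in intron 2 at 2.4 kb, chr11:62576722-62576751: cgtgatggaggcTGTGGTtgctgtttctgt
Trpv2 RBS pair downstream at 54.9 kb, chr11:62629335-62629374: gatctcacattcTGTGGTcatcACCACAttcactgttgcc

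*Trpa1* (ENSMUSG00000032769.5, chromosome 1, 14872648 to 14918862, minus strand) had 3 peaks in all. An ATAC peak lay at its start, another downstream of the gene at 76.2 kb from its start, and an Isl1_LHXF peak at -34.6 kb in unmarked chromatin. The window of 146 kb held 0 peaks of H3K27Ac, Runx3 and Brn3a. The Isl1 peak is printed as the single TF peak of the gene, and it holds CTAATNG and 2 RBS (capitals) without a Runx3 peak.
Trpa1 Isl1_LHXF peak at -34.6 kb, chr1:14953376-14953618: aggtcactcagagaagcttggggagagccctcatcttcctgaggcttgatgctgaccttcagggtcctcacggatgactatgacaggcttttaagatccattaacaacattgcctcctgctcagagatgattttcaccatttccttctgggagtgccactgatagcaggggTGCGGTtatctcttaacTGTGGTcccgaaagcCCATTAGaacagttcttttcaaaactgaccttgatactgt

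*Trpm8*, the cold and menthol receptor (ENSMUSG00000036251.16, chromosome 1, 88277661 to 88389293, plus strand), had 6 ATAC, 4 H3K27Ac, 3 Runx3, 6 Brn3a and 3 Isl1 peaks in 212 kb. Its outermost start (Trpm8-203) is shared with the promoter of *Hjurp*, a gene of centromere assembly, and ATAC, H3K27Ac, Runx3_RBS and a Brn3a peak without BRNF met there. These marks cannot be told apart between the genes by position. A Runx3 peak without RBS and an Isl1_LHXF peak overlapped at -18.0 kb in chromatin with both ATAC and H3K27Ac, where *Mroh2a* had the nearest coding TSS. The start of the main transcript Trpm8-202, at 25.6 kb, had no peak of any list within 1 kb. Inside the gene, Brn3a_BRNF peaks lay at 16.2 kb (with Isl1_LHXF), 30.6, 46.2 and 68.0 kb, a Brn3a peak without BRNF but with 2 RBS at 45.7 kb and a Runx3_RBS peak with 3 RBS at 83.6 kb in intron 22, and none of them overlapped ATAC or H3K27Ac. The RBS of the shared promoter and of the intronic peak are shown in capitals.
Trpm8 and Hjurp shared promoter RBS, chr1:88277678-88277707: cgcattacttcaTGCGGCactcccgcgtcc
Trpm8 intron 22 RBS pair at 83.6 kb, chr1:88361107-88361161: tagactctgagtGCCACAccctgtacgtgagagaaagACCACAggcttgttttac
Trpm8 intron 22 further RBS, chr1:88361273-88361302: tgaggttgagtgTGTGGTttcaattcaaag

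**Figure D4:**
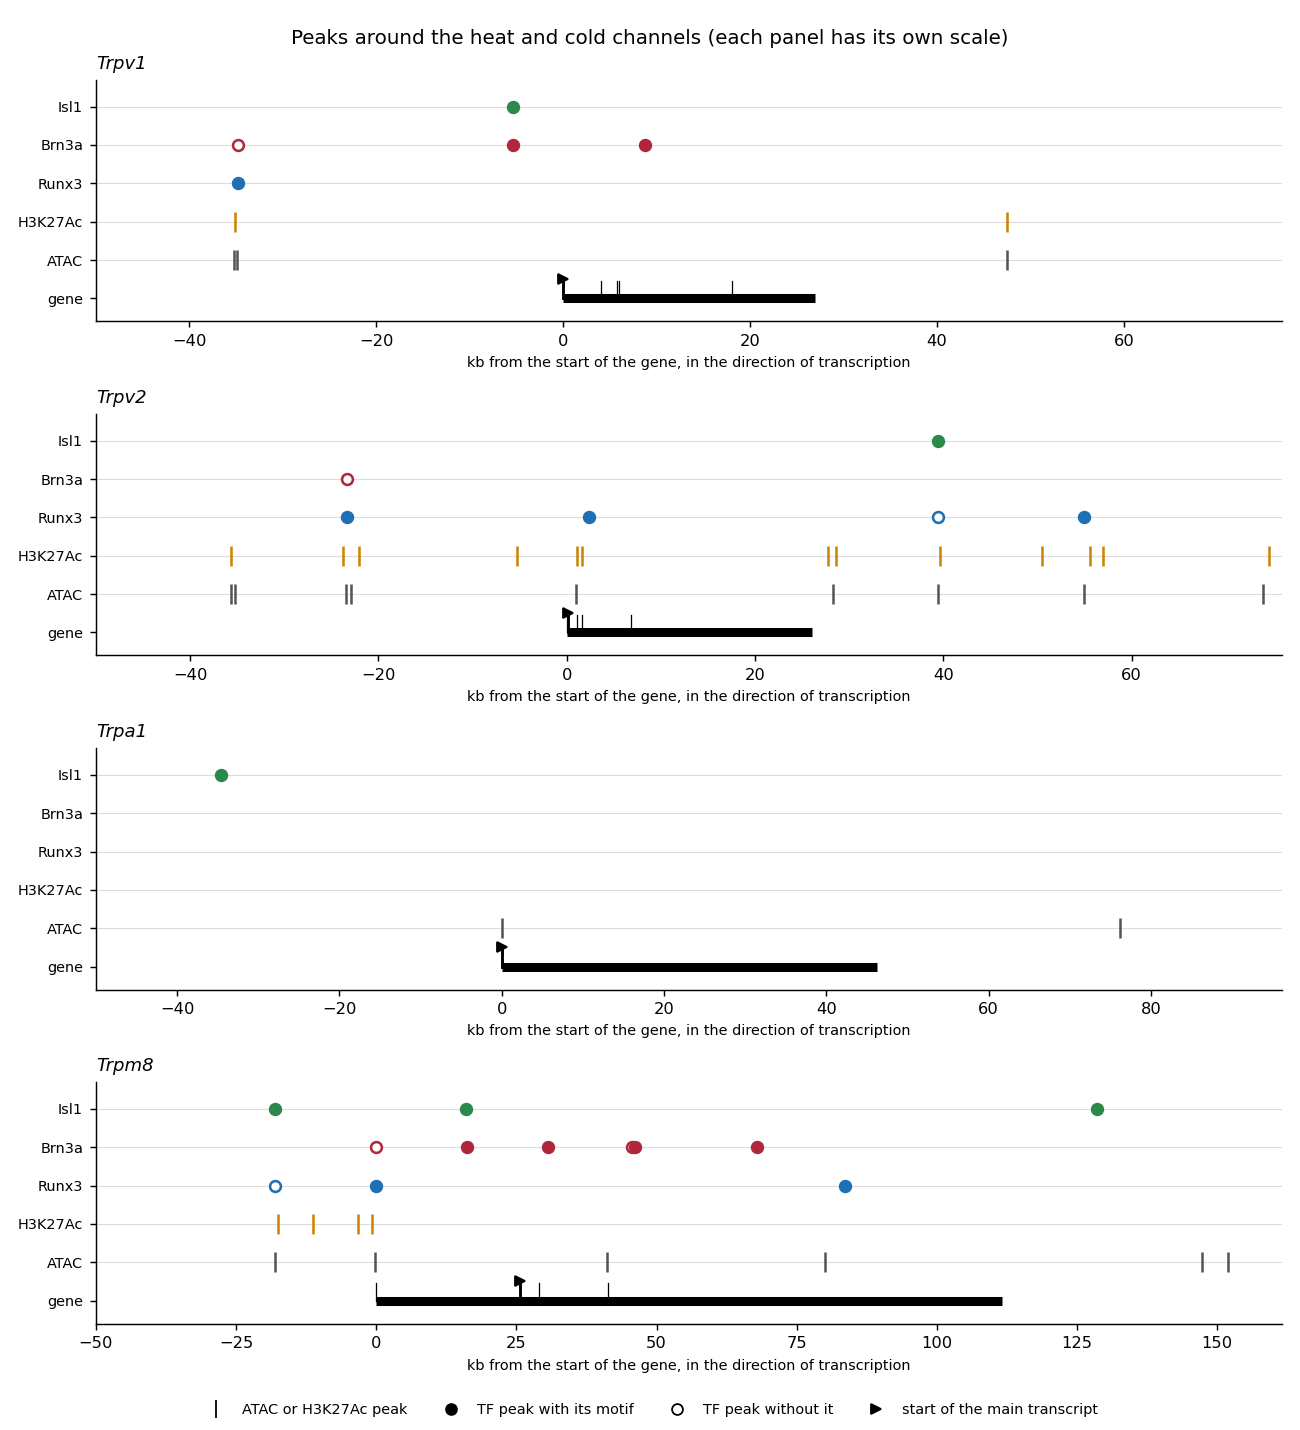
Maps of *Trpv1*, *Trpv2*, *Trpa1* and *Trpm8*, with the x axis in kb from the start of the gene, ticks for ATAC and H3K27Ac peaks and circles for TF peaks (filled with the motif, open without). The bodies of *Trpv1* and *Trpa1* hold 1 peak each, and the TF peaks inside *Trpm8* lie apart from its ATAC peaks at 41.1 and 80.0 kb.

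The TFs were then compared by the sites they shared. Merging gave 79 TF sites around the mechanosensory genes and 17 around the heat and cold genes. Sites shared by Runx3, Brn3a and Isl1 numbered 11 of 79 (13.9%, interval 7.16% to 23.5%) and 0 of 17 (up to 19.5%), beside 8.48% of the 43430 TF sites of the genome, so the intervals of the sets overlap. With 50 kb upstream of *Piezo2* as for the other genes, it was 7 of 72 (9.72%, 4% to 19%). The 11 sites were 5 at *Piezo2*, 3 at *Asic1* and 3 at *Asic2*. With all 3 motifs demanded there were 5 sites, 3 at *Piezo2* (1 of them in its body or within 50 kb), 1 at *Asic1* and 1 at *Asic2*, and 7.07% of all coding genes had such a site within 50 kb. Of the 11 shared sites 4 overlapped both marks, 4 ATAC alone and 3 neither.

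Neither ATAC nor H3K27Ac overlapped 48 of 79 mechanosensory TF sites (60.8%, 49.1% to 71.6%) and 11 of 17 heat and cold sites (64.7%, 38.3% to 85.8%), beside 50.5% of the TF sites of the genome. Without *Asic2* it was 17 of 41 mechanosensory sites (41.5%, 26.3% to 57.9%). By TF, 26 of 35 Runx3 peaks of the members overlapped ATAC (74.3%, 56.7% to 87.5%), beside 77.9% of the whole list. For Brn3a it was 26 of 70 (37.1%, 25.9% to 49.5%) beside 46.1%, and 21 of 40 without *Asic2* (52.5%, 36.1% to 68.5%). Isl1 peaks of the members met ATAC in 13 of 43 cases (30.2%, 17.2% to 46.1%), and the interval lies below the 47.2% of the whole list. *Asic2* supplied 20 of the 43 Isl1 peaks, and without it the share was 10 of 23 (43.5%, 23.2% to 65.5%), an interval that includes that of the whole list. Brn3a_BRNF peaks overlapped ATAC in 10 of 39 cases at mechanosensory genes (25.6%, 13% to 42.1%) and in 0 of 6 at heat and cold genes, which allows up to 45.9%, beside 35.5% of all Brn3a_BRNF peaks, so a difference was not detectable.

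**Figure D5:**
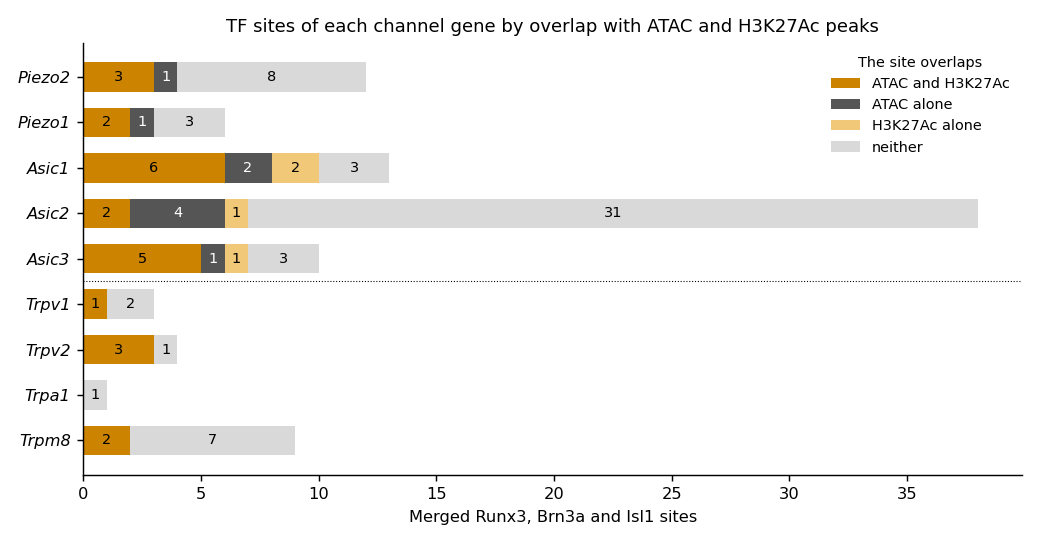
Merged Runx3, Brn3a and Isl1 sites (x axis, number of sites) of each channel gene, split by overlap with ATAC and H3K27Ac peaks. *Asic2* has 31 of its 38 sites in neither mark, while 10 of 13 sites of *Asic1* and 7 of 10 of *Asic3* overlap at least 1 mark.

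In promoters, 12 of 14 Brn3a peaks of the members overlapped ATAC (85.7%, 57.2% to 98.2%), beside 84.2% of such peaks in the list. Outside promoters (over 1 kb from any TSS), 14 of 56 Brn3a peaks of the members overlapped ATAC (25%, 14.4% to 38.4%, beside 37.9% of such peaks in the list), and in the heat and cold set 0 of 7 did. *Asic2*, where 31 of 38 TF sites overlapped neither mark, supplied 30 of these 56 peaks and so weighs on this share too. Runx3 peaks outside promoters overlapped ATAC in 13 of 19 cases (68.4%, 43.4% to 87.4%, beside 62.7%). From the side of open chromatin, 34 of the 90 ATAC peaks of the members overlapped a TF peak (37.8%, 27.8% to 48.6%), beside 32.9% of all ATAC peaks, with 27 of 70 in the mechanosensory set and 7 of 20 in the heat and cold set.

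Other channels from fixed lists gave a wider view. Of 10 further genes linked to mechanosensation (*Asic4*, *Stoml3*, *Tmem63a*, *Tmem63b*, *Tmem63c*, *Tmem150c*, *Tmc1*, *Tmc2*, *Kcnk2* and *Kcnk4*), 6 had an ATAC peak and 6 an H3K27Ac peak at a TSS. Of 7 further heat and cold genes (*Trpv3*, *Trpv4*, *Trpm2*, *Trpm3*, *Trpc5*, *Ano1* and *Kcnk18*), 4 had ATAC and 1 had H3K27Ac there. Beside these counts, 64.8% of all coding genes had ATAC and 58.3% had H3K27Ac at a TSS. Runx3_RBS peaks lay within 50 kb of 6 of 10 and 4 of 7, beside 52.3% of all coding genes. They lay in the bodies of 1 of 10 (*Tmem63b*) and 1 of 7 (*Trpm3*), beside 16.1%. *Kcnk2*, a potassium channel opened by stretch, had 7 Brn3a_BRNF and 5 Isl1_LHXF peaks in a window of 294 kb. *Trpm3*, a heat-activated channel of DRG neurons, had 7 and 4 in 956 kb, so its peaks were sparser. The median densities of the 10 and the 7 genes were 0.743 and 0.38 Runx3 peaks per 100 kb and 1.74 and 1.5 Brn3a peaks, beside 0.798 and 0.928 over all coding genes. Medians over the 5 mechanosensory and 4 heat and cold members were 2.36 and 1.1 for Runx3 and 2.52 and 1.58 for Brn3a. The densities given above for the whole member sets are pooled over their windows and are not medians.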

How the data were processed

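The authors deposited a list of consensus peaks (mm10) per assay, for ATAC (64227 peaks), H3K27Ac (32655), Runx3 (13443), Brn3a (32822 on nuclear chromosomes) and Isl1 (16035). Columns hold peak starts and ends and, in the TF lists, a motif column (how many RBS, or whether V$BRNF or V$LHXF is present), and no signal. Reads were aligned with Bowtie per the labels, and the methods of the study name Bowtie2 for ATAC. Peaks were called with MACS2, CUT&RUN against NRS. A peak was kept in 2 of 3 samples for ATAC and Isl1, 3 of 5 for H3K27Ac, 4 of 8 for Runx3 and 2 of 2 for Brn3a. The authors removed blacklisted peaks and CUT&RUN peaks made mostly of repeats, so binding within repeats is not seen. A weak site can be missed where samples are few.

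Genes came from GENCODE M21 and sequence from GRCm38.p6, which share coordinates with mm10. Starts were read as 1-based, since the RBS counted in the sequence then equalled the list for 13443 of 13443 Runx3 peaks. A peak within 1 kb of a TSS was a promoter peak. After the methods of the study, shorter ATAC peaks were widened to 500 bp and other shorter peaks to 300 bp before 1 bp of overlap was asked for. Peaks longer than these limits kept their full length. Shares have exact Clopper-Pearson intervals, and ratios of densities exact conditional intervals. No test was run, because the lists have no value per sample. The rule for naming was all 9 members, with peaks that overlap another list or hold an RBS given by position. Merged sites of several TFs and Runx3_RBS peaks were the first choice for positions, and many other peaks are given by counts. The members and the lists of further genes and markers were chosen with earlier results of these data known. On simulated peaks the overlap code was right in 1600 of 1600 cases, and 1000 of 1000 planted RBS were found. Python 3.11.15, numpy 2.4.6, scipy 1.17.1, pysam 0.24.0 and matplotlib 3.10.9 were used. The result of 1 marker list is not reported here.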

Additional observations from a re-analysis of the deposited data

How the results depend on the processing

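Windows, overlap rules and members were varied in 70 alternatives over 13 results, and 62 gave a ratio or share within the counting interval of the value reported, or a count within 1.5 times of it. These intervals are wide, so several ratios within them still changed by over 1.5 times. The density ratio of mechanosensory over heat and cold genes for H3K27Ac moved from 0.651 to 1.21 with gene bodies alone, to 1.64 without *Trpv2* and to 1.75 with gene bodies alone and without *Asic2*. Without *Asic2* the ratios turned from 0.942 to 1.5 for ATAC, from 0.908 to 1.48 for Runx3 and from 0.651 to 1.04 for H3K27Ac, and with gene bodies alone and no *Asic2* that of ATAC was 1.53. The Isl1 ratio went from 1.66 to 3.36 with gene bodies alone and to 2.63 when *Asic2* was also left out, and that of Runx3 was 1.44 without *Trpv2*. For Brn3a it moved from 1.61 to 0.806 with gene bodies alone and to 0.511 when *Asic2* was also left out. Counting only peaks with a channel gene as the nearest coding TSS, the ratio fell to 1.08 for Isl1 and to 1.11 for Brn3a. In that setting it was 1.11 for ATAC and 0.628 for both H3K27Ac and Runx3. The share of Brn3a peaks that overlapped ATAC moved from 37.1% to 52.5% without *Asic2*, and the share of mechanosensory TF sites with neither mark from 60.8% to 41.5%. The alternatives without *Trpv2*, with gene bodies without *Asic2*, the shares without *Asic2* and the share of 3-TF sites with 50 kb upstream of *Piezo2* were chosen after seeing the data. With flanks of 25 kb the H3K27Ac ratio was 0.459, and its interval of 0.238 to 0.931 did not include 1, the single ratio of which this was so. The number of sites shared by the 3 TFs rose from 5 to 11 when no motif was demanded. The overlap of TF peaks with ATAC differed by 0 to 1 peak between overlap rules. No paired analysis was possible because the lists are consensus lists with no values per sample, and leaving out a replicate could not be done for the same reason. Numbers of peaks are small around single genes, depth is unknown, and the nearest gene need not be the target.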
